A study of Mus musculus with 11 samples.

Results

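Cadherins are calcium-dependent adhesion proteins of the cell surface, and the genes described here are all those in the expression files whose symbol is Cdh followed by a number, or Pcdh followed by a number with or without an x. This rule used the gene name alone and no measured value. It took 35 of the 24421 genes, of which 23 were Cdh genes and 12 were non-clustered protocadherins, while the clustered Pcdha, Pcdhb and Pcdhg genes, whose symbols carry a letter in that place, were left out. Astrocytes had been sorted by fluorescence from Aldh1l1-eGFP mice on the C57BL/6 strain at 16 weeks of age, a transgenic line in which the Aldh1l1 promoter drives green fluorescent protein, so that any GFP-positive cell of that promoter entered the sort. The samples came from the olfactory bulb (OB, n = 3), hippocampus (HC, n = 3), cortex (CX, n = 2) and brainstem (BS, n = 3), all groups carried the same transgene and none was treated. The question was how the expression of these adhesion genes compared across the 4 regions.

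A classical cadherin spans the membrane and binds the same or a related cadherin on the next cell through its outer domains, while its inner tail holds p120-catenin and beta-catenin, which link it through alpha-catenin to actin. Type I classical cadherins include the E-, N-, P- and R-cadherins, and type II classical cadherins form a larger group whose members are laid out in different combinations over brain nuclei and cortical areas. Non-clustered protocadherins of the delta-1 and delta-2 groups bind more weakly, lack the catenin-binding tail and are known from neural circuit formation. Astrocytes use N-cadherin in contacts with each other and with neurons.

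The deposited values are read counts divided by 1 scaling factor per sample, and are called normalized values below. The samples held 2830746 to 14151670 reads in genes with a median of 5552215, and the BS group was the shallowest with a median of 3098215 reads. A floor of 3 reads corresponded to a normalized value between 1.10 and 6.31, and values near it carry a large counting error. Rn45s, the ribosomal RNA precursor, took 0.966% to 2.93% of the reads in the OB and HC samples and 18.0% to 25.6% in the CX and BS samples, so that OB against HC and CX against BS are the comparisons made between samples with like shares. The summed value of 8 astrocyte markers (Aldh1l1, Gfap, Aqp4, Slc1a2, Slc1a3, Gja1, Sox9 and Aldoc) was 230526 to 275534 in OB, 270999 to 461723 in HC, 555938 to 630026 in CX and 93288 to 277780 in BS, so astrocyte genes were found in every sample. The glutamate transporter Slc1a2 alone made up 66.2% to 86% of this sum, and the other 7 markers summed to 65971 to 76128 in OB, 45972 to 73879 in HC, 83474 to 88134 in CX and 31523 to 68854 in BS. BS replicate 1 was the lowest in both sums but not in every marker, since Aldh1l1 was 623 there and 542 in HC replicate 1. Nothing in the labels says that replicates came from separate animals, so the p-values below measure only the spread between these samples. In sorted bulk samples, fewer cells of a type and less RNA per cell cannot be told apart.

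Of the 35 members, 30 passed the filter on low counts and were tested among 13875 genes. Cdh15 (M-cadherin, known from muscle) and Cdh16 (known from kidney) had no read in any sample. Each was thus under the floor of 3 reads in every sample, which does not show that it was absent. Cdh17 had 7 reads over 4 samples, Cdh26 had 9 reads over 2 samples and Pcdh12, an endothelial protocadherin, had 18 reads over 5 samples. With limma, 14 of the 30 tested members (46.7%) differed among the 4 regions at an adjusted p under 0.05, against 16.5% of all genes tested. These were Cdh1, Cdh2, Cdh3, Cdh4, Cdh6, Cdh19, Cdh20, Cdh22, Cdh24, Pcdh1, Pcdh10, Pcdh17, Pcdh19 and Pcdh20. Of them, Cdh24 passed the filter only through its OB samples. Of these calls, 3 were near the threshold and depended on the fit, namely Cdh1 (adjusted p = 0.0478), Cdh6 (adjusted p = 0.0497) and Pcdh17 (adjusted p = 0.0464), and without the filter on low counts their adjusted p was 0.0915, 0.0951 and 0.0759. The count was 9 when CX replicate 1 was left out, which leaves 1 CX sample that is assumed to vary like the other groups.

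**Figure D1:**
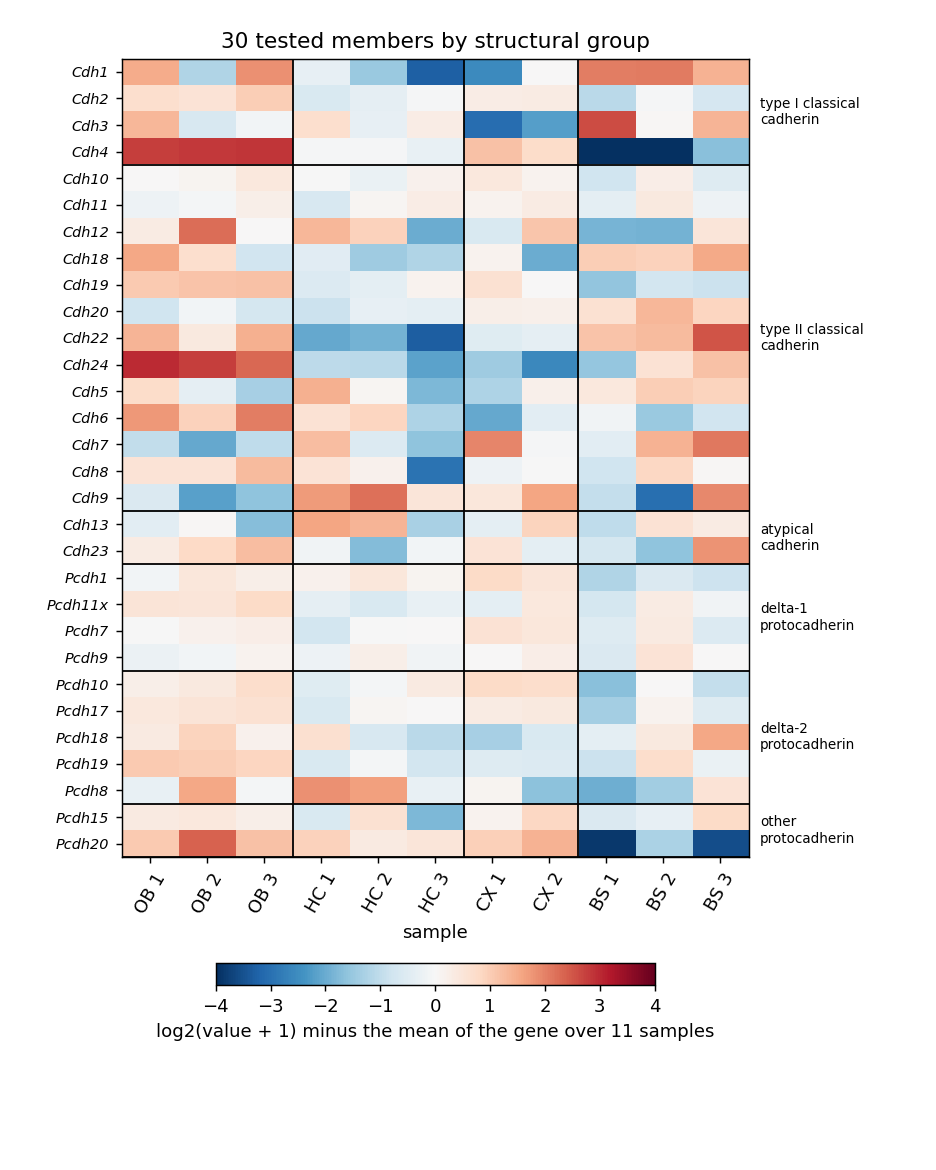
Heat map of log2(value + 1) for the 30 tested members (rows, by structural group) in the 11 samples (columns, by region), with the mean of each gene over the 11 samples subtracted. Cdh4 and Cdh24 are red in the 3 OB samples, Cdh4 and Pcdh20 are blue in the 3 BS samples, Cdh20 is red in BS and Cdh22 is blue in HC.

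All 4 type I cadherins that could be tested differed among the regions, where 16.5% of all genes did. Cdh2, N-cadherin, lies on chromosome 18 and had the highest level per length of all members in each region, at 591 ± 93.2 per kb of exon in OB (SD, n = 3), 283 ± 56.6 in HC (n = 3), 436 ± 7.0 in CX (n = 2) and 244 ± 90.0 in BS (n = 3). Its normalized value was 2801, 2539.7 and 3438 in the OB samples, 1134, 1376 and 1693 in HC, 2136 and 2185 in CX and 833, 1701 and 1090.3 in BS. All 3 OB samples were above every other sample, CX came next, and the HC and BS samples overlapped. Among the regions Cdh2 differed with an adjusted p of 0.00332 (limma), and it was higher in OB than in HC by 1.07 ± 0.23 on the log2(value + 1) scale (SE, adjusted p = 0.0101) and than in BS by 1.33 ± 0.23 (adjusted p = 0.00121), while the difference of 0.43 ± 0.26 from CX had an adjusted p of 0.479.

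Cdh4, R-cadherin, a close relative of N-cadherin (chr2:179442431-179899373, plus strand, in build GRCm38, which equals the mm10 build of the files), had region means that spanned 53.0 times, a span passed only by Cdh24, whose lower regions held few reads. Its values were 798, 837 and 858 in OB, 112, 114 and 95.8 in HC, 265 and 193 in CX and 5.26, 6.01 and 35.8 in BS. The 4 regions did not overlap, with OB the highest, then CX, HC and BS (where replicate 2 held the 3 reads of the floor), and the OB mean of 831 ± 30.1 (SD, n = 3) stood against a BS mean of 15.7 ± 17.4 (n = 3). By limma the OB to BS difference was 6.15 ± 0.49 on the log2(value + 1) scale (SE, adjusted p = 9.14e-07), and BS was also below HC by a log2 difference of 3.21 ± 0.49 (HC minus BS, adjusted p = 0.00101) and below CX by 4.28 ± 0.55 (CX minus BS, adjusted p = 0.000140). Neighbouring levels in CX and HC had an adjusted p of 0.460 with limma, and OB against CX one of 0.0663, so these steps did not pass the test with limma, while DESeq2 called both and edgeR called OB against CX.

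Cdh1, E-cadherin, and Cdh3, P-cadherin, are best known from epithelia, are near neighbours on chromosome 8 with 46053 bases between them, and were both low. Cdh1 (chr8:106603351-106670246, plus strand) had values of 35.8, 4.74 and 45.2 in OB, 9.37, 3.65 and 0.367 in HC, 1.26 and 12.3 in CX and 53.6, 54.1 and 33.7 in BS. All BS samples were above all HC and CX samples, and OB spread over both, with replicate 2 as low as HC. HC replicate 3 was under the floor of 3 reads, so the size of the difference given next depends on the pseudocount. HC was below BS by a log2 difference of -3.54 ± 0.95 (HC minus BS, adjusted p = 0.0456), a call that was lost with edgeR, without the filter on low counts, with a pseudocount of 0.25 and with the replicate block. Cdh3 (chr8:106510891-106557297, plus strand) had values of 45.6, 11.1 and 16.2 in OB, 28.7, 13.7 and 22.0 in HC, 1.26 and 3.07 in CX and 114, 18.0 and 46.3 in BS. Both CX samples, which held 1 and 2 reads of Cdh3, were below every other sample. A fold is not given, since its size is set by the pseudocount. CX against all other samples had an adjusted p of 0.209 and was called by the unadjusted rule given below, a call that was lost without CX replicate 1, and CX was below BS with an adjusted p of 0.00496. Choroid plexus markers (9 genes, summed) were 202 to 310.3 in OB, 70389 to 143378 in HC, 1728 to 4871 in CX and 51320 to 241221 in BS, where replicate 1 was the highest in both Cdh3 and these markers. Meningeal fibroblast markers (5 genes, 2768) and ependyma markers (6 genes, 496) were also highest in BS replicate 1. The Cdh3 values of OB and HC overlapped, and their choroid plexus sums did not. The part of these cells in the Cdh3 difference was not tested.

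**Figure D2:**
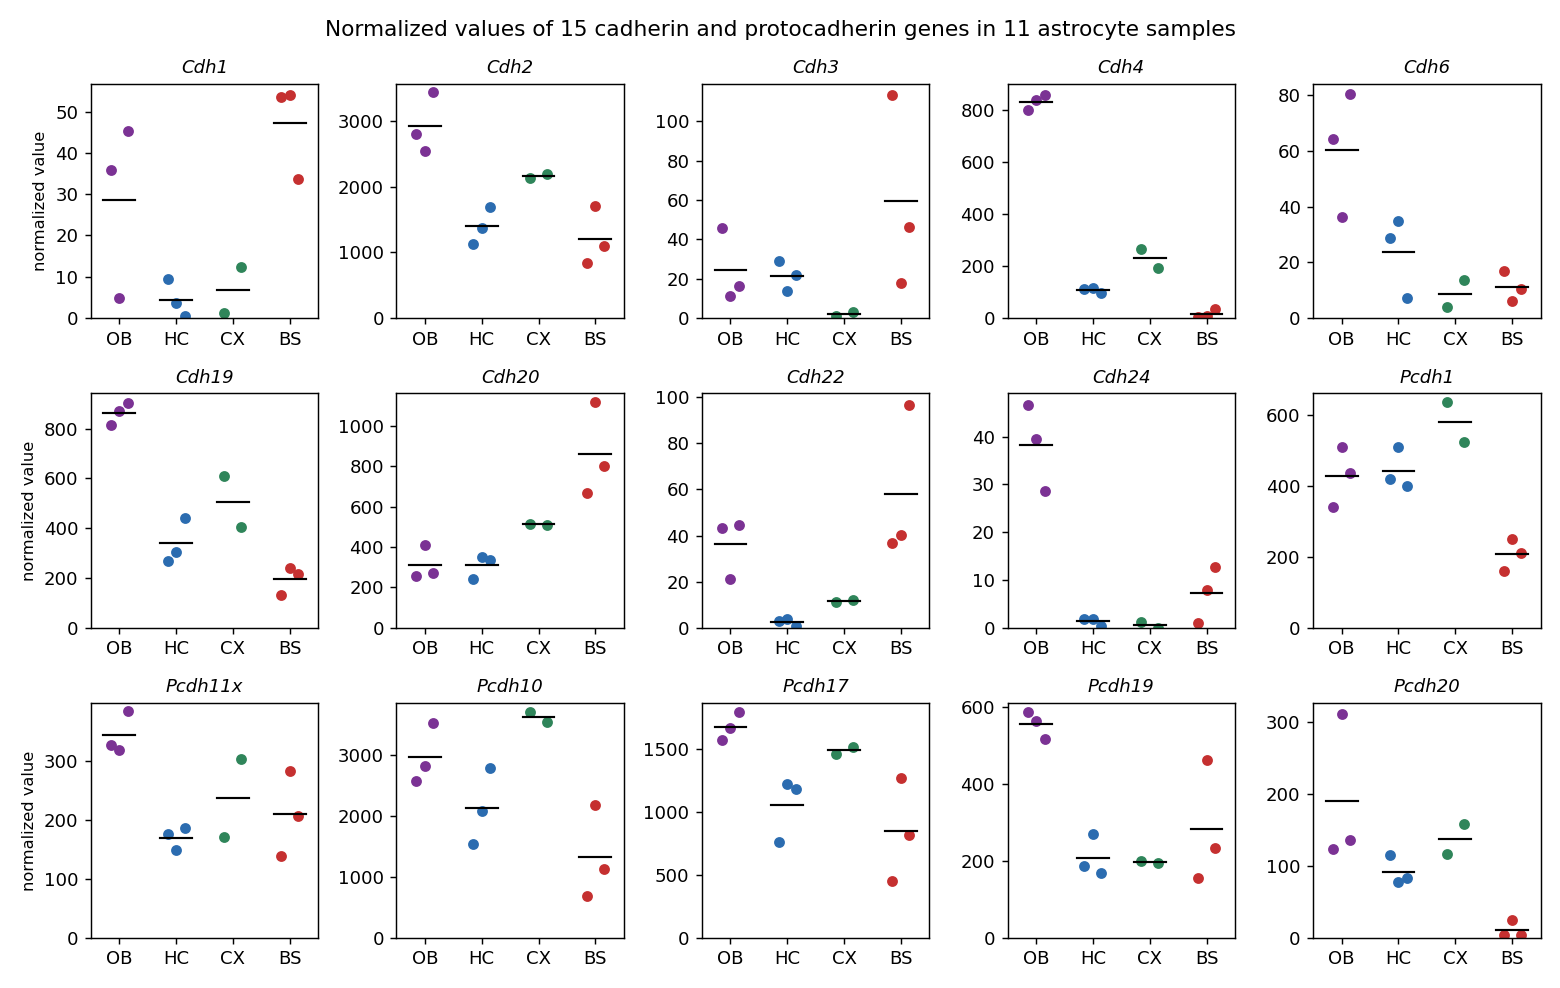
Normalized values of the 15 members that differed among the regions or were called in 1 region, with 1 point per sample, a line at the mean of each region and a linear axis from 0. OB lies above all other samples for Cdh2, Cdh4, Cdh6, Cdh19, Cdh24, Pcdh11x, Pcdh17 and Pcdh19, and BS lies below all other samples for Cdh4, Cdh19, Pcdh1 and Pcdh20.

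Type II cadherins were the largest group, and 5 of the 13 differed among the regions, against the same 16.5% of all genes. Of these, Cdh6, Cdh19 and Cdh24 had their highest mean in OB, Cdh20 and Cdh22 in BS. Cdh19, known from the Schwann cell lineage (chr1:110888326-110977584, minus strand), was 816, 872 and 902 in OB, 269.8, 306 and 441 in HC, 608 and 405 in CX and 131, 240.4 and 217 in BS. The OB samples were above and the BS samples below all others, and HC and CX overlapped. OB was higher than HC by 1.38 ± 0.25 (adjusted p = 0.00258) and than BS by 2.18 ± 0.25 (adjusted p = 2.91e-05), and CX was higher than BS by 1.38 ± 0.28 (adjusted p = 0.00464).

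Cdh20 (chr1:104768529-104995481, plus strand), on the same chromosome, had the reverse pattern. It was the only member called higher in BS than in all other samples taken as 1 group. Against the equal-weight mean of the other 3 regions, Cdh1, Cdh3 and Cdh22 were also called in BS, where their means were highest. The Cdh20 values were 256, 408 and 270.4 in OB, 244, 349.8 and 337 in HC, 516 and 511 in CX and 669.7, 1118 and 802 in BS. Every BS sample was above every other sample, CX lay between, and OB and HC overlapped. The BS level was above that in OB (OB minus BS, -1.47 ± 0.23, adjusted p = 0.000498) and HC (HC minus BS, -1.46 ± 0.23, adjusted p = 0.00142), while CX minus BS was -0.72 ± 0.26 (adjusted p = 0.0957). Per length, Cdh20 stood at place 10 among the members in OB and at place 2 in BS, behind Cdh2, with 215 ± 57.4 per kb (SD, n = 3), as a description of the order. Cdh20 was also the 1 tested member in which every CX and BS sample was above every OB and HC sample, as the Rn45s share was, which held for 0.685% of all genes tested. The part of that share in the Cdh20 difference was not tested.

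Cdh24 (chr14:54631231-54641364, minus strand) was low everywhere but in OB, at 46.7, 39.5 and 28.5 there, 1.87, 1.83 and 0.367 in HC, 1.26 and 0 in CX and 1.05, 8.01 and 12.6 in BS. The HC and CX samples held at most 3 reads each, so folds against these regions are set by the pseudocount and are not given. Cdh24 passed the filter on low counts only through its OB samples, so it could hardly be called lower in OB. The same limit holds for every count of called members that includes it. OB differed from HC (adjusted p = 0.00691) and CX (adjusted p = 0.00916) with limma, and the difference from BS had an adjusted p of 0.0530. Cdh22, known from pituitary gland and brain (chr2:165111507-165234853, minus strand), had 43.4, 21.3 and 44.7 in OB, 3.12, 3.65 and 0.734 in HC, 11.3 and 12.3 in CX and 36.8, 40.1 and 96.8 in BS. Here the HC samples were the lowest, CX next, and OB and BS overlapped. HC was below OB (OB minus HC, 3.47 ± 0.62, adjusted p = 0.00239) and BS (HC minus BS, -4.05 ± 0.62, adjusted p = 0.00109). HC replicate 3 was under the floor of 3 reads, so the sizes of these differences depend on the pseudocount. Cdh6, K-cadherin (chr15:13028701-13173675, minus strand), had 64.1, 36.3 and 80.3 in OB, 28.7, 34.7 and 7.34 in HC, 3.77 and 13.8 in CX and 16.8, 6.01 and 10.5 in BS, with every OB sample above the rest by a narrow gap to HC replicate 2.

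Promoter sequence is shown for 2 type II members called in opposite regions, Cdh20 (higher in BS) and Cdh24 (higher in OB). Each line gives the 250 bases before the RefSeq start in GRCm38.p6, 5′ to 3′ on the strand of the gene, at chr1:104768270-104768519 (plus strand) for Cdh20 and chr14:54641365-54641614 (minus strand) for Cdh24. Capitals mark TTGGC on either strand (TTGGC or GCCAA), the core letters bound by NFI factors, which are widespread in astrocytes. The Cdh20 window holds 2 such matches and the Cdh24 window 0, and the windows also differ in base composition, with 47.6% and 72.8% G or C.
Cdh20: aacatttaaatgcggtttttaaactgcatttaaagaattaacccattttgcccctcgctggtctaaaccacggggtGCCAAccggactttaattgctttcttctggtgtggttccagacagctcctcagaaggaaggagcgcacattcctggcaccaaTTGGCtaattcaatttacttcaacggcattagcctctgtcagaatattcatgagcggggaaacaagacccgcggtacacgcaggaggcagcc
Cdh24: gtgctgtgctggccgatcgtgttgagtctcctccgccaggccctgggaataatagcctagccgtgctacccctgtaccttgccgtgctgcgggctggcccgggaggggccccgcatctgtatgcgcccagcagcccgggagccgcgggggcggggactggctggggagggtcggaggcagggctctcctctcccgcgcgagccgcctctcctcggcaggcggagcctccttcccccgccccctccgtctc

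The other 8 type II members did not pass the test. Of these, Cdh11, Cdh10 and Cdh5 had the highest means. Cdh11 had region means of 692 ± 111 in OB (SD, n = 3), 674 ± 209 in HC, 812 ± 78.8 in CX and 677 ± 196 in BS (adjusted p = 0.812, limma), and its region means spanned 1.21 times. Cdh10 had 526 ± 81.4 in OB, 454 ± 68.6 in HC, 566 ± 75.9 in CX and 379.6 ± 153 in BS (adjusted p = 0.285). Cdh5, VE-cadherin, which defines endothelial junctions, had 107 ± 74.2 in OB, 153 ± 140.4 in HC, 89.0 ± 58.4 in CX and 194 ± 37.6 in BS (adjusted p = 0.533). Within HC the Cdh5 value went from 31.6 in replicate 3 to 307 in replicate 1, and the sum of 6 endothelial markers was 309 and 2211 in the same samples. The remaining 5 (Cdh7, Cdh8, Cdh9, Cdh12 and Cdh18) were between 0 and 64.6 in every sample. Among the atypical cadherins, T-cadherin Cdh13, which is tied to the membrane by a lipid anchor, ranged from 7.54 to 81.8 and Cdh23, of the hair cell tip link, from 3.65 to 52.6, and neither passed the test (adjusted p = 0.650 and 0.597).

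Of the 4 delta-1 protocadherins, 1 differed among the regions, against 16.5% of all genes. Pcdh1, on chromosome 18, had values of 341, 509 and 435 in OB, 419, 509.7 and 401 in HC, 637 and 523 in CX and 161, 250.4 and 210.5 in BS. All BS samples were below every other sample, CX was highest, and OB and HC overlapped. BS was below OB by a log2 difference of 1.05 ± 0.21 (OB minus BS, adjusted p = 0.00342), below HC by 1.11 ± 0.21 (HC minus BS, adjusted p = 0.00548) and below CX by 1.496 ± 0.24 (CX minus BS, adjusted p = 0.000851). Pcdh11x, which is X-linked (chrX:120290259-120910619, plus strand), was 327, 317 and 385 in OB, 176, 148 and 185 in HC, 171 and 302 in CX and 138, 282 and 206 in BS. The OB samples were the 3 highest, with CX replicate 2 close below. Among the 4 regions its adjusted p was 0.0696, just outside the threshold, and OB was higher than HC by 1.01 ± 0.27 (adjusted p = 0.0329).

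Pcdh9 and Pcdh7 had the highest levels of the delta-1 group and did not pass the test. Pcdh9 had region means of 1100.1 ± 153 in OB, 1125 ± 183 in HC, 1271 ± 161 in CX and 1203 ± 454 in BS (SD, n = 3, 3, 2 and 3, adjusted p = 0.931 with limma). Its means spanned 1.16 times, the least of all tested members, and it stood at place 2 per length over all samples, with 165 ± 22.9 per kb in OB and 181 ± 68.2 in BS. Pcdh7 had 1473 ± 137 in OB, 1142 ± 304 in HC, 1906 ± 143 in CX and 1186 ± 459.9 in BS (adjusted p = 0.157), and both CX samples were above all others. An antisense transcript of Pcdh7, 4932441J04Rik, covers 21.2% of its exon bases and its reads could be shared, although its own mean value was 2.09.

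Of the 5 delta-2 protocadherins, 3 differed among the regions, against 16.5% of all genes, and this group includes genes that recruit actin regulators to cell contacts. Pcdh10 (chr3:45378398-45435623, plus strand) was 2566, 2825 and 3517 in OB, 1541, 2073 and 2789.5 in HC, 3696 and 3545 in CX and 676, 2179.7 and 1122 in BS. Both CX samples were the highest, OB and HC overlapped, and BS ranged from the lowest sample into the HC range. BS was below OB by a log2 difference of 1.31 ± 0.32 (OB minus BS, adjusted p = 0.0123) and below CX by 1.61 ± 0.36 (CX minus BS, adjusted p = 0.00962). Pcdh17 (chr14:84443563-84539002, plus strand) was 1567, 1666 and 1795 in OB, 760.2, 1222 and 1178 in HC, 1461 and 1516 in CX and 452, 1270.1 and 817 in BS. OB was highest and CX next, both without overlap, and only OB against BS passed among the pairs (1.11 ± 0.29, adjusted p = 0.0165).

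Pcdh19, an X-linked gene known from an inherited epilepsy (chrX:133582860-133688987, minus strand), was 589, 563 and 517 in OB, 187, 269 and 169 in HC, 199.8 and 193 in CX and 156, 463 and 234 in BS. The OB samples were above all others, and HC, CX and BS overlapped, with BS replicate 2 near OB. It was the delta protocadherin that was higher in OB than in each other region, by 1.44 ± 0.31 against HC (adjusted p = 0.00837), 1.495 ± 0.34 against CX (adjusted p = 0.0194) and 1.11 ± 0.31 against BS (adjusted p = 0.0231). Of the rest of the delta-2 group, Pcdh18 ranged from 26.4 to 202 and Pcdh8, an activity-regulated protocadherin of neurons, from 1.05 to 26.9, and neither passed the test (adjusted p = 0.188 and 0.357).

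Pcdh20 (chr14:88464743-88471396, minus strand), outside both delta groups, was low in the 3 BS samples. Its values were 124, 310.3 and 136 in OB, 114, 77.6 and 83.3 in HC, 117 and 158 in CX and 3.15, 24.0 and 4.21 in BS. The BS samples were below all others with BS replicate 1 at the floor of 3 reads and replicate 3 under it, OB and CX overlapped, and HC lay just below both. BS was below OB by a log2 difference of 4.42 ± 0.57 (OB minus BS, adjusted p = 8.81e-05), below HC by 3.49 ± 0.57 (HC minus BS, adjusted p = 0.00171) and below CX by 4.07 ± 0.64 (CX minus BS, adjusted p = 0.000776). The sizes of these differences depend on the pseudocount. Its neighbour on chromosome 14 with no protein-coding gene between, Pcdh9, had the narrowest span of all. Pcdh15, the hair cell tip link partner of Cdh23, ranged from 8.81 to 59.8 and did not pass (adjusted p = 0.542).

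The protocadherin promoters shown are those of Pcdh10 and Pcdh20, both lower in BS, and of Pcdh19, higher in OB, in the same format, with TTGGC or GCCAA in capitals. They lie at chr3:45378148-45378397 (plus strand), chr14:88471397-88471646 (minus strand) and chrX:133688994-133689243 (minus strand), and hold 3, 2 and 2 matches. RefSeq windows were found for 22 of the 35 members, 25 windows in all. Some of these are of the same gene (Cdh7 and Pcdh9), and the Pcdh9 windows overlap and hold the same TTGGC match. The 25 windows are therefore not independent. TTGGC on either strand was in 15 of these 25, and in 41.5% of all 32851 promoter windows of this length. The homeodomain core TAATTA, also read on both strands, was in 1 of 25 (a Cdh7 window) and in 4.84% of all windows. AAGTG, an NK homeodomain core, was in 10 of 25 and 40.7% of all windows. The E-box CANNTG was in 13 and 66.2%, and the GC box GGGCGG in 9 and 32.7%. The printed windows are a choice among called members, and those of Cdh6 and Cdh22, also called, hold 0 TTGGC matches. Median G or C content was 58.4% over the member windows and 52.4% over all windows.
Pcdh10: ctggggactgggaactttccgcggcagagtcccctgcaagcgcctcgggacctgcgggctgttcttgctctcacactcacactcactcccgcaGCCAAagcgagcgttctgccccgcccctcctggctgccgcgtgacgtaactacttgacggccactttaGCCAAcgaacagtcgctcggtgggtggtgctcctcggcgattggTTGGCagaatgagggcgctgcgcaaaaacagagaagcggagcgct
Pcdh20: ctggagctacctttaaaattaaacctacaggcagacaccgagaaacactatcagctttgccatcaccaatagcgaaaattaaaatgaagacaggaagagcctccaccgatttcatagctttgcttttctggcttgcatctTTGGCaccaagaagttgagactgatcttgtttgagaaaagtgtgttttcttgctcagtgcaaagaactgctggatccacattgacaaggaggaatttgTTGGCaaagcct
Pcdh19: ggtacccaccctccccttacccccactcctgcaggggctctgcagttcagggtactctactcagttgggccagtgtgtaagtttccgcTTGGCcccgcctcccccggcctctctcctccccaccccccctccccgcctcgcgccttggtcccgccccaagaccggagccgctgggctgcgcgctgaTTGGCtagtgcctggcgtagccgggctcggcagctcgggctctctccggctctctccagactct

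**Figure D3:**
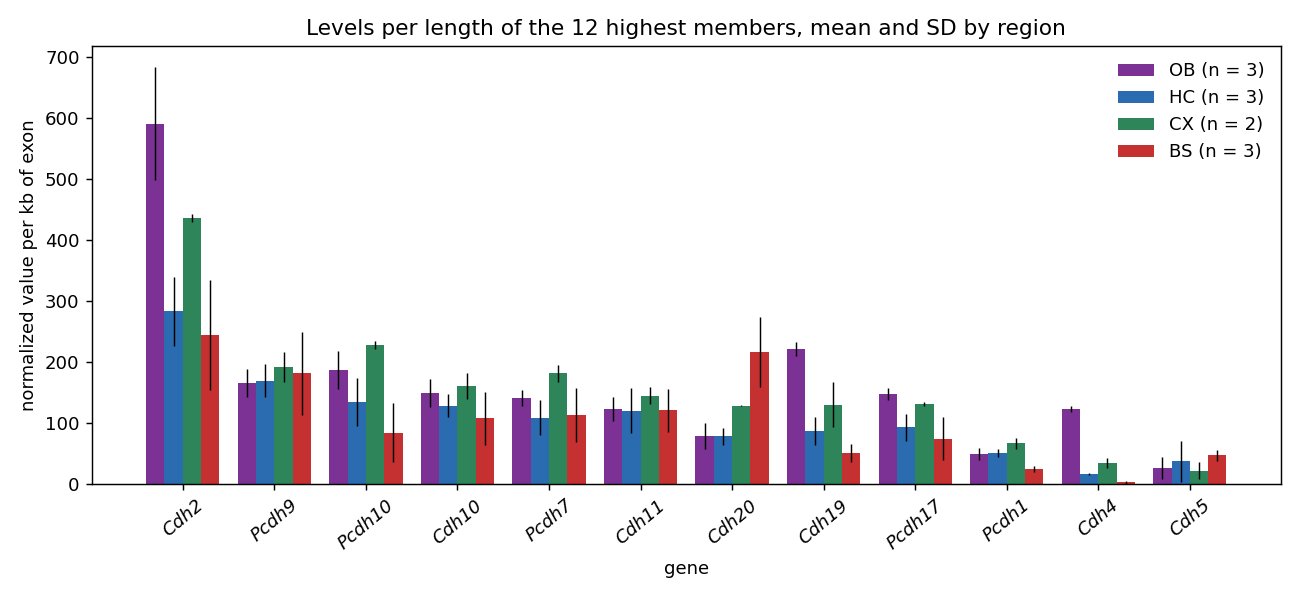
Normalized value per kb of exon for the 12 members with the highest level per length over all samples, as bars for the mean of each region with the SD as error bar, on a linear axis from 0. Cdh2 is the highest in every region, Cdh20 is second in BS, and Cdh4 falls from 122 in OB to 2.31 in BS.

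Cdh2 made up 26.8% of the summed level per length in OB, 20.1% in HC, 22.3% in CX and 17.4% in BS. Cdh20 made up 3.53% in OB and 15.4% in BS, and Cdh19 went the other way with 10.02% in OB and 3.58% in BS. The summed normalized value of all 35 members was 14220.0 to 17053 in OB, 8375 to 11272 in HC, 14523 to 14589 in CX and 6229 to 12970 in BS. The OB and CX ranges overlapped, and HC and BS lay below both.

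Each region was then set against all other samples, with thresholds taken from the study and applied to limma: an unadjusted p under 0.01, a change of more than 1.5-fold, and 2 or more replicates of 1 region with values above 5. The study states the last limit in RPM (reads scaled to a common library total), and here it was set on the deposited values, where a value of 5 was 0.711 to 1.08 RPM. With 5 RPM, a limit added after the data were seen, the counts of called members were the same 7, 1, 1 and 6 in OB, HC, CX and BS. In OB, 7 of the 30 tested members were called, against 8.04% of all genes tested, and all 7 were higher, against 4.15%. These were Cdh24 (adjusted p = 0.0165, with no fold given for the reason above), Cdh4 (log2 difference 3.88 ± 1.01 (SE), adjusted p = 0.0424), Cdh6 (2.15 ± 0.61, 0.0632), Cdh19 (1.53 ± 0.35, 0.0217), Pcdh19 (1.33 ± 0.27, 0.0108), Cdh2 (1.00 ± 0.27, 0.0486) and Pcdh11x (0.81 ± 0.24, 0.0711). They come from the type I, type II, delta-1 and delta-2 groups. Cdh24 passed the filter on low counts only through OB, so its place among the 7 is no support for a shared direction. In the pairwise test, 6 of the 7 (all but Cdh6) were also higher in OB than in HC. The HC samples were part of the comparison group behind the 7 calls, so this count is no separate support. The part of the Rn45s share in these calls was not tested. By limma, 0 members were called lower in OB, against 3.89% of all genes, with 1 member lower at an unadjusted p under 0.05, against 8.84% of all genes, and edgeR called 0 and DESeq2 1 (Cdh9). Over the 30 members the median log2 difference of OB from the other samples was 0.66, beside 0.02 over all genes. For 8 members every OB sample was above every other sample (the 7 and Pcdh17), against 4.93% of all genes. With an adjusted p under 0.05 in place of the unadjusted one, 5 members were called in OB, against 4.54% of all genes. Without OB replicate 3 the count of OB calls was 4, with Cdh2, Cdh6 and Pcdh11x no longer called.

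In BS, 6 members were called, against 9.03% of all genes tested. Of these 1 was higher (Cdh20, 1.27 ± 0.25, adjusted p = 0.00951), against 3.98% of all genes, and 5 were lower, against 5.05%. The lower ones were Cdh4 (-4.58 ± 0.77, adjusted p = 0.00337), Pcdh20 (-3.98 ± 0.51, 0.000455), Cdh19 (-1.46 ± 0.37, 0.0339), Pcdh10 (-1.20 ± 0.32, 0.0432) and Pcdh1 (-1.18 ± 0.19, 0.00266). For 4 members every BS sample was below every other sample (Cdh4, Cdh19, Pcdh1 and Pcdh20), against 4.19% of all genes. In the pairwise test all 5 lower members were also lower in BS than in CX, and Cdh20 did not pass that test. The CX samples were part of the comparison group behind these calls, so this count is no separate support. The part of the Rn45s share in these calls was not tested. For Cdh20 every BS sample was above, against 3.7%, while Pcdh10 overlapped. All 6 also passed with an adjusted p under 0.05, against 5.31% of all genes. The median size of the BS difference, without its sign, was 0.98 over the members and 0.38 over all genes. With the equal-weight mean of the other 3 regions as the reference, 11 members were called in BS, against 14.1% of all genes. Those added were Cdh1, Cdh3 and Cdh22, whose means were highest in BS, and Cdh2 and Pcdh17, whose means were lowest there. Without BS replicate 1, Cdh19 and Pcdh10 were no longer called, and without replicate 3 Pcdh10 was not.

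In HC, 1 member was called, against 1.28% of all genes tested. This was Cdh22, which was lower (-3.32 ± 0.64, adjusted p = 0.200), against 1% of all genes. The size of this difference depends on the pseudocount. Of all genes, 0.281% were called higher. Every HC sample of Cdh22 was below every other sample, which 1.03% of all genes did. In CX, 1 member was called, against 2.77% of all genes tested. This was Cdh3, which was lower, against 1.74% of all genes, and 1.02% of all genes were called higher. Neither passed an adjusted p of 0.05 with limma, by which 0 members were called in HC, against 0% of all genes, and 0 in CX, against 0.0144%. At an unadjusted p under 0.05 limma gave 2 members in HC, against 5.69% of all genes, and 2 in CX, against 9.89%. At an adjusted p under 0.05 edgeR gave 0 in each and DESeq2 1 in each. Without CX replicate 1 the counts by the unadjusted rule were 2 in HC and 0 in CX. In CX all samples of Pcdh1, Pcdh7 and Pcdh10 were nonetheless above every other sample, which 5.02% of all genes did, and those of Cdh3 were below, which 3.15% did.

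**Figure D4:**
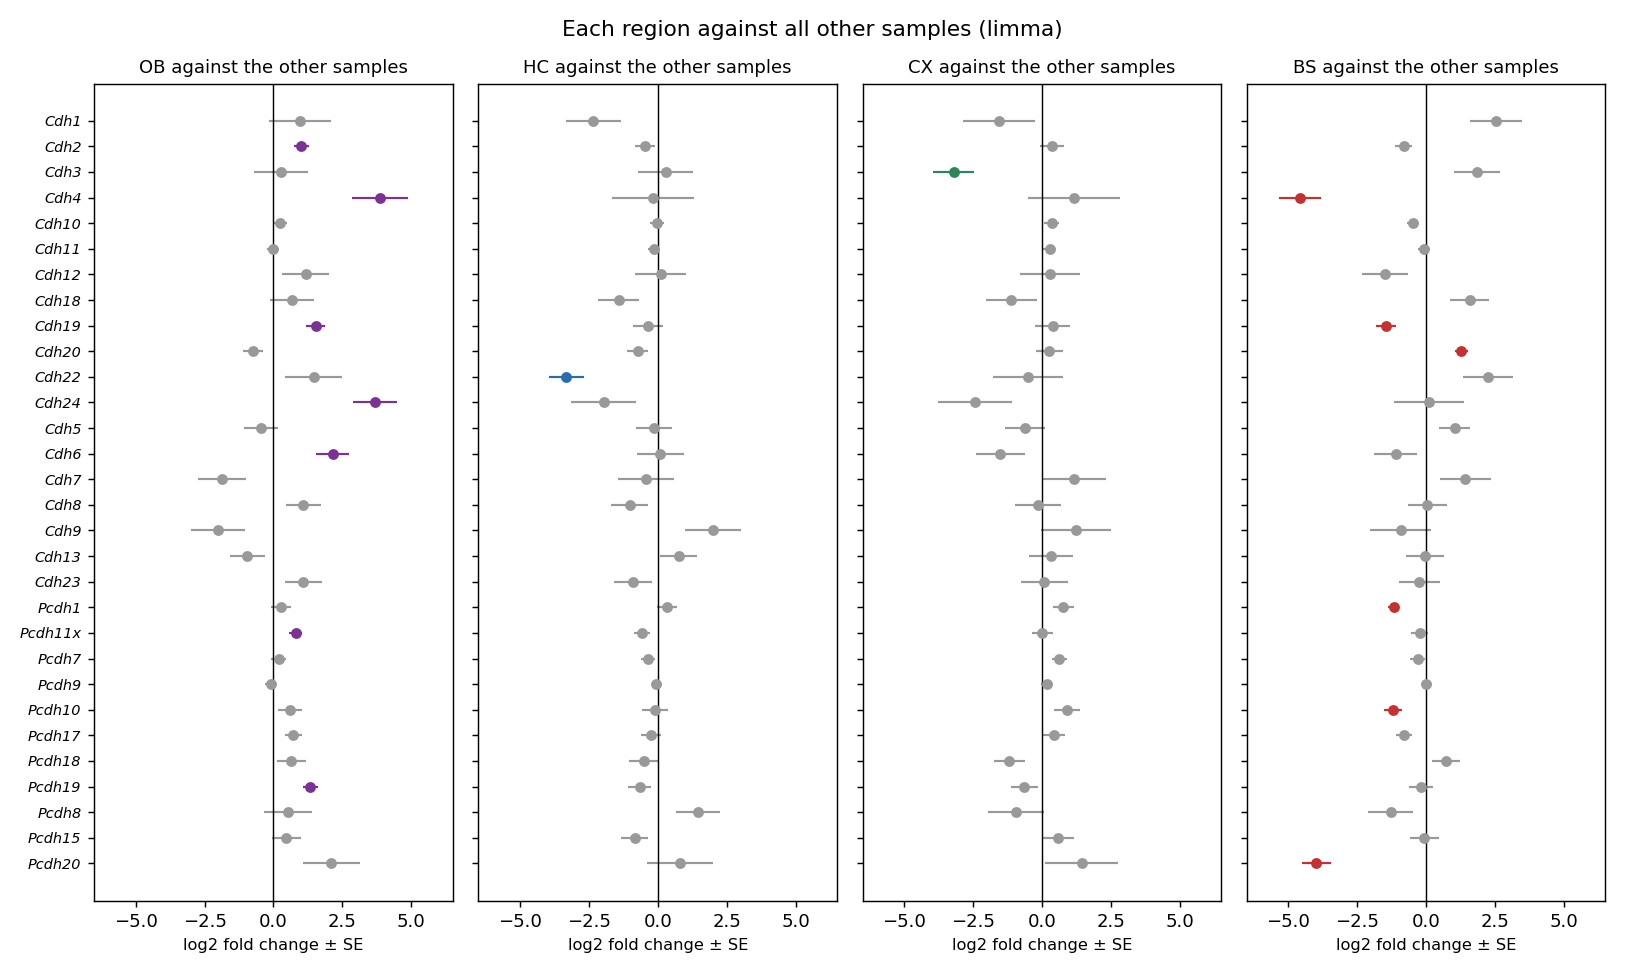
Log2 difference with its SE (limma, log2(value + 1) scale) of each region from all other samples for the 30 tested members, in 1 panel per region, with called members coloured and the others grey. In OB the 7 coloured members lie to the right of 0, and in BS 5 lie to the left and Cdh20 to the right. The sizes for Cdh24 and Cdh3 are set by the pseudocount, and those for other low members, such as Cdh1, Cdh22 and Pcdh20, depend on it.

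Pairs of regions were compared at an adjusted p under 0.05 (limma, 6 contrasts per gene). OB and BS differed most often, in 10 of 30 members against 15% of all genes, of which 9 were higher in OB, against 7.41%, and Cdh20 was lower, against 7.55%. Without OB replicate 3 this count was 6. OB and HC differed in 7 members against 7.11% of all genes, all higher in OB, against 3.63%. CX and BS differed in 7 against 10.9%, of which 6 were higher in CX, against 5.46%, and Cdh3 was lower, against 5.44%. This count was 3 without CX replicate 1, and edgeR no longer called Cdh2. HC and BS differed in 6 against 4.63%, with Cdh4, Pcdh1 and Pcdh20 higher in HC, against 2.69%, and Cdh1, Cdh20 and Cdh22 lower, against 1.95%. OB and CX differed in 2, Cdh24 and Pcdh19, against 4.91%, and both were higher in OB, against 2.83%. This count was 0 without OB replicate 1 or CX replicate 2, 1 without OB replicate 2, OB replicate 3 or CX replicate 1, and 5 without BS replicate 1 or 2, and it was 3 with edgeR and 5 with DESeq2. HC and CX differed in 0 members with limma, against 1.23% of all genes, where 6 members had an unadjusted p under 0.05, against 12.4%, edgeR called 0 and DESeq2 called 1 (Cdh4). These contrasts share samples and are not independent of each other. For the counts with a sample left out, with edgeR or with DESeq2, the share over all genes was not counted.

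The proteins that work with cadherins were read from a list of 49 genes (catenins and other tail partners, Fat, Dchs and Celsr cadherins, calsyntenins, desmosomal cadherins, Cdhr genes and nectins), of which 47 were in the files and 33 were tested. Among the regions 16 of the 33 differed, against 16.5% of all genes tested. The core catenins did not pass, with adjusted p of 0.415 for beta-catenin Ctnnb1, 0.509 for p120-catenin Ctnnd1 and 0.761 for Ctnna1. Other catenins of the list did pass the same F-test, among them Ctnnd2 (adjusted p = 0.0033), Jup (0.000829) and Ctnna2 (0.000219). The mean was lowest in BS for Ctnnd2 and Jup, and highest in CX for Ctnnd2 and in OB for Jup. In OB 6 of the 33 were higher, against 4.15% of all genes, and 5 lower, against 3.89%. In BS 4 were higher, against 3.98%, and 4 lower, against 5.05%, and in CX 1 was higher, against 1.02%. Of the higher ones, Cdhr1 in OB and Fat2 in BS passed the filter on low counts only through the region where they were high.

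Of the 6 listed genes with the smallest adjusted p among the regions, Celsr1, a cadherin of planar cell polarity, was 19.97, 22.0 and 21.0 in BS and 77.1 to 456 in all other samples (BS against the others -3.24 ± 0.43, adjusted p = 0.000558). Cdhr1, the photoreceptor cadherin, was 141, 471 and 125 in OB and 0 to 3.65 elsewhere (adjusted p = 0.000121). OB replicate 2, the highest in Cdhr1, was also the highest OB sample in the summed 10 neuron markers given below (3754). BS replicates 1 and 3 had higher neuron sums (3809 and 3936), and Cdhr1 was 0 in both. The part of neurons in the Cdhr1 difference was not tested. Fjx1, a relative of a kinase of the Fat pathway, was 1548 and 1249.6 in CX and 183 to 603 elsewhere. These 3 genes each stood apart in a different region. Ctnna2, the neural alpha-catenin, was 115, 73.4 and 83.0 in OB and 144 to 374 elsewhere (OB against the others -1.50 ± 0.28, adjusted p = 0.00619), opposite in direction to Cdh2 and Cdh4. Ctnnal1, a catenin-like gene, was 1217, 541 and 709 in BS and 131 to 509.7 elsewhere. Desmoglein Dsg2 had no read in the 3 OB samples and was 77.5, 26.5 and 34.1 in HC, 7.54 and 1.53 in CX and 94.6, 26.0 and 71.6 in BS.

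Markers of other cells also differed between the regions. Olfactory ensheathing glia markers (5 genes) summed to 1540.2 to 2045 in OB and 2.003 to 126 elsewhere, with 4 of 5 higher in OB. Olfactory sensory neuron markers (5 genes) summed to 269.9 to 561 in OB and 2.003 to 6.13 elsewhere, with 4 of 5 higher in OB, and neuroblast markers (6 genes) to 523 to 831 in OB and 36.8 to 348 elsewhere, with 4 of 6 higher. The neuroblast sum outside OB was highest in CX, at 176 and 348. The defining genes Omp and S100a5 had no read in HC or BS, so they passed the filter on low counts only through OB. Of the 10 neuron markers 8 differed among the regions, and their sum was 2184 to 3754 in OB, 1395 to 2589 in HC, 2415 to 3077 in CX and 2933 to 3936 in BS. In OB 2 were higher, the GABA synthesis genes Gad1 (301 to 473 against 14.6 to 67.3 elsewhere) and Gad2 (302 to 391 against 41.5 to 286), and 1 was lower, the neurofilament gene Nefl. Other lists were lower in OB, with 6 of 8 oligodendrocyte markers (summed to 9501 to 15788) and 8 of 9 choroid plexus markers (202 to 310). Of 4 oligodendrocyte precursor markers, 1 was higher in OB. The part of all these cells in the 7 OB calls was not tested.

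In BS, oligodendrocyte markers (8 genes) summed to 52260.4 to 89909, against 9501 to 39771 elsewhere, with 4 of 8 higher in BS, and meningeal markers (5 genes) to 501 to 2768 against 80.4 to 465 elsewhere, with 1 of 5 higher. Of the 8 astrocyte markers, 1 (Slc1a3) was lower in BS. Of the 10 neuron markers 4 were higher in BS (Snap25, Stmn2, Nefl and Eno2) and 3 were lower (Syt1, Rbfox3 and Slc17a7, the vesicular transporter of cortical excitatory neurons). The part of the other cell types in the BS differences was not tested.

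**Figure D5:**
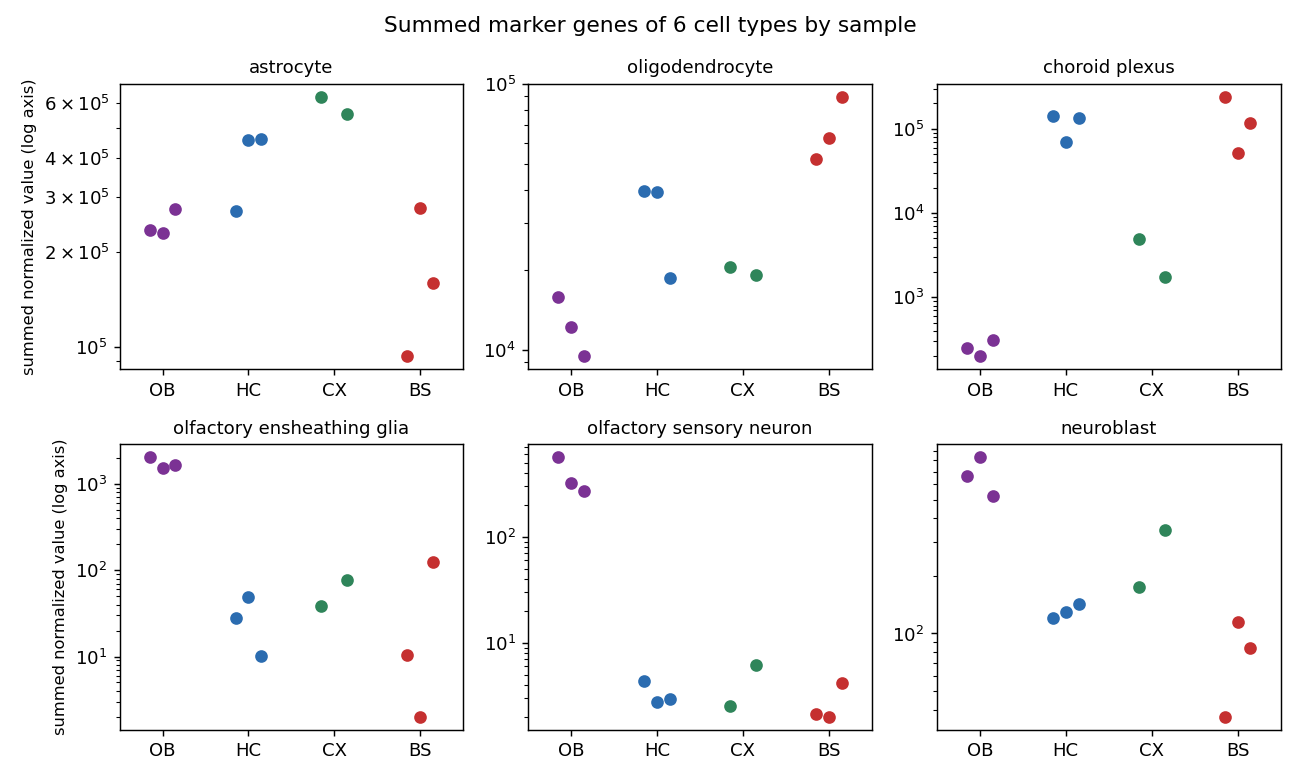
Summed normalized values of marker genes for 6 cell types by region, with 1 point per sample on a log axis. Astrocyte markers are high in all samples and lowest in BS replicate 1, the 3 olfactory and neuroblast lists are highest in OB, choroid plexus markers are high in HC and BS, and oligodendrocyte markers are highest in BS.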

How the data were processed

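RNA from sorted Aldh1l1-eGFP astrocytes of 4 regions (11 samples) was sequenced by the study with the Trio RNA-Seq System. The authors mapped reads to mm10 with STAR 2.5.0a, counted them over UCSC transcripts, and deposited 1 table per sample of normalized signal, that is, read counts divided by a DESeq2 size factor (DESeq2 1.20.0, per the submitters' processing notes). Dividing each signal value by the smallest step of its sample gave whole reads for 100% of non-zero values (tolerance 0.001 reads), and size factors recomputed from these reads matched the deposited scale. Whether counting used strand is not given in the sources used here, so antisense overlaps are uncertain.

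Values were tested as log2(value + 1) with limma 3.58.1 (trend, two-sided, R 4.3.3) on the 13875 genes that passed the expression filter of edgeR 4.0.16 on the recovered reads, with Benjamini-Hochberg adjustment over all of them. Differences are on the log2(value + 1) scale, which understates changes of low genes. An F-test over the region means and 6 pairwise contrasts used 1 mean per region, and each region was also tested against all other samples in 1 group with thresholds taken from the study (unadjusted p under 0.01, fold over 1.5, value over 5 in at least 2 replicates of 1 region, where the study gives RPM and the deposited scale was used here). The fits were tested on simulated data. Alternatives were edgeR quasi-likelihood with TMM factors, DESeq2 1.42.0, no filter, a pseudocount of 0.25, TMM rescaling, a replicate block, leaving out each sample, the equal-weight mean of the other 3 regions, and adjusted p in place of unadjusted p.

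Floors of 3 reads cover counting error only. Values in every sample are given for members that differed among the regions or were called in 1 region, region means for the 5 others with the highest mean, and of the associated list the 6 genes with the smallest adjusted p. The members, lists and marker genes were chosen with earlier results of these data known. Coordinates and exon lengths are from GENCODE M21 (GRCm38), in which all 35 members were found, and promoter sequences are from RefSeq (GRCm38.p6).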

Additional observations from a re-analysis of the deposited data

How the results depend on the processing

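For the members called in a region against the other samples, the direction of that difference did not reverse under any alternative run. Directions were not compared across the runs for Cdh1 and Pcdh17, which were called in no single region. They were also not compared for the pairs of regions. For the calls of the named members among the 4 regions and of the members called in 1 region, under alternatives other than left-out samples and adjusted p, 184 were as in the report, 10 passed no longer and 1 passed newly. These lost calls were those of Cdh1, Cdh6 and Pcdh17 among the 4 regions, and Pcdh11x passed newly with DESeq2 (adjusted p = 0.0232). With adjusted p in place of unadjusted p, Cdh6 and Pcdh11x in OB, Cdh22 in HC and Cdh3 in CX were no longer called. Members not called in a region in the report were called there by DESeq2 (Cdh9 in OB, Cdh1 and Cdh24 in HC, Cdh2 in BS) and against the equal-weight mean (Cdh20 and Pcdh20 in OB, Cdh20 in HC, Cdh24 and Pcdh1 in CX, Cdh1, Cdh2, Cdh3, Cdh22 and Pcdh17 in BS). Among the pairs, Cdh1 between HC and BS was lost with edgeR, no filter, a pseudocount of 0.25 and the replicate block, Cdh2 between CX and BS with edgeR and no filter, and Cdh6 between OB and BS with no filter. With samples left out, 287 calls were as in the report, 41 were lost and 2 were gained.

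The count in HC was 3 with DESeq2, 2 against the equal-weight mean of the other regions and 0 with adjusted p. The count in CX was 3 against the equal-weight mean and 0 with adjusted p, and in BS it was 11 against the equal-weight mean. DESeq2 gave 5 members between OB and CX and 1 between HC and CX. Shares over all genes were not counted with DESeq2, with samples left out, or for HC and CX against the equal-weight mean. These changed counts are therefore no result about the members. For BS the share over all genes was 9.03% in the report and 14.1% against the equal-weight mean. The cause of these changes was not tested. Leaving out 1 sample gave 9 to 15 members among the 4 regions, 4 to 8 in OB, 1 to 2 in HC, 0 to 1 in CX and 4 to 9 in BS. Between regions it gave 5 to 8 for OB and HC, 0 to 5 for OB and CX, 6 to 12 for OB and BS, 0 to 0 for HC and CX, 5 to 7 for HC and BS and 3 to 10 for CX and BS, and for the associated list 15 to 18. CX replicate 1 decided 4 of these limits, since without it 9 members differed among the regions, 2 were called in HC, 0 in CX and 3 between CX and BS. Without OB replicate 3 the count was 4 in OB and 6 between OB and BS. Between OB and CX it was 0 without OB replicate 1 or CX replicate 2, 1 without OB replicate 2, OB replicate 3 or CX replicate 1, and 5 without BS replicate 1 or 2. A limit of 5 RPM, chosen after seeing the data, left the counts in the 4 regions at 7, 1, 1 and 6. A left-out CX sample leaves 1 in that group, which is assumed to vary like the others.

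The labels link samples of different regions only by a replicate number. Of 15 same-numbered pairs 3 correlated over 0.1 in their deviations from the region means (median 0.02, range -0.16 to 0.25). Between OB and HC the same-numbered pairs had correlations of 0.195, 0.074 and 0.25, and the other pairs -0.22 to 0.03. The deviations are taken within small groups and so depend on each other. They cannot show whether same-numbered samples shared an animal or a batch. With the replicate number as a block, 12 members differed among the 4 regions, 7 were called in OB and 6 in BS. Depth limits the low members, for which the floor of 3 reads was a value of up to 6.31 in BS.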
